A study of Mus musculus with 9 samples.

Results

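The genes described here mostly encode components of the lens capsule matrix, other proteins of matrix or its remodelling, and the integrins that hold cells to matrix. They were chosen by symbol: collagen chains (Col and a digit), laminin chains (Lama, Lamb or Lamc and a digit), integrin subunits (Itga or Itgb), and 14 named genes of matrix assembly and remodelling, which are Nid1, Nid2, Hspg2, Agrn, Fn1, Sparc, Tnc, Cyr61, Ucma, Adamts15, Mmp2, Mmp14, Timp1 and Timp3. This gave 36 of the 7739 genes with a value in any library. Of the 36, 34 encode matrix proteins, matrix proteases or their inhibitors, or integrin subunits. The other 2 share only a prefix: Col4a3bp encodes a ceramide transporter and Itgb1bp1 an adaptor that binds an integrin tail.

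RNA of mouse lenses at 15.5 days post conception had been sequenced in 9 libraries, 3 for each of 3 groups, and each library came from a pool of 30 lenses. The conditional knockout (cKO) lenses were Sip1 flox/flox and carried MLR10Cre, a transgene that expresses Cre recombinase in lens cells under a modified alpha A-crystallin promoter. Sip1 is the zinc finger repressor encoded by Zeb2. The mixed wild type lenses were also Sip1 flox/flox, on the same mixed background, but had no Cre, so these controls carry the floxed alleles and no control for Cre alone was analysed here. The inbred wild type lenses came from the C57Bl/6<har> strain. The labels call the 3 pools of a genotype independent biological replicates. Levels are the authors' RPKM (reads per kilobase of exon and of a fixed number of mapped reads).

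The lens is wrapped in a thick basement membrane, the capsule, which its epithelial cells and, at the rear, its fibre cells secrete throughout life. Basement membranes are built from a laminin network and a type IV collagen network, joined by nidogens and by the heparan sulphate proteoglycans perlecan and agrin. Cells grip this sheet through integrins, each a pair of an alpha and a beta subunit, and integrins that contain the beta 1 subunit are needed for lens epithelial cells to survive and for fibre cells to keep their shape.

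The members fell into separate tables. The inbred files listed 7676 genes once each and held 32 members. The cKO and mixed wild type files listed 190 genes and held the other 4, Ucma, Adamts15, Cyr61 and Itgb8. No member was among the 127 genes listed once in both kinds of file, so none could be compared between cKO and inbred or between mixed and inbred wild type lenses. The recovered depth (M, mega) of cKO libraries was 25.9 to 27.4 M reads. Mixed wild type libraries held 38.7 to 44.1 M reads, and inbred wild type libraries 14.1 to 16.7 M reads. In the inbred libraries 6 of 6 genes of the lens epithelium list (Cryaa, Cryab, Foxe3, Prox1, Cdh1 and Pax6) and 8 of 8 lens fibre markers were listed. These counts do not measure how much epithelium the pools held. Zeb2 was listed at 5.81 ± 0.587 RPKM (SD, n = 3) in inbred wild type lenses and is not among the 190 genes, so the targeted gene could not be used to check the cKO label.

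In the wild type lens, basement membrane components led the members. The 15 basement membrane genes summed to 1142 ± 157 RPKM (SD, n = 3 inbred libraries), which was 67.3% of the members' sum of 1696 ± 184 RPKM. Sparc, Col4a1, Nid1 and Col4a2 alone made 70.3% of the members' sum. The members held 0.336% ± 0.0465 (SD, n = 3) of the summed RPKM of all listed genes, most of which belongs to crystallins, and 0.864% when crystallins were left out of the denominator. The share was larger in values not scaled by length, at 1.23% ± 0.154 of the reads and 1.40% ± 0.137 of the normalized expression values. The median member stood at 9.53 RPKM, against 7.65 RPKM for the median of all listed genes. Since lenses were pooled whole, a lower share of cells of a type and less RNA per cell cannot be told apart in these levels.

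**Figure D1:**
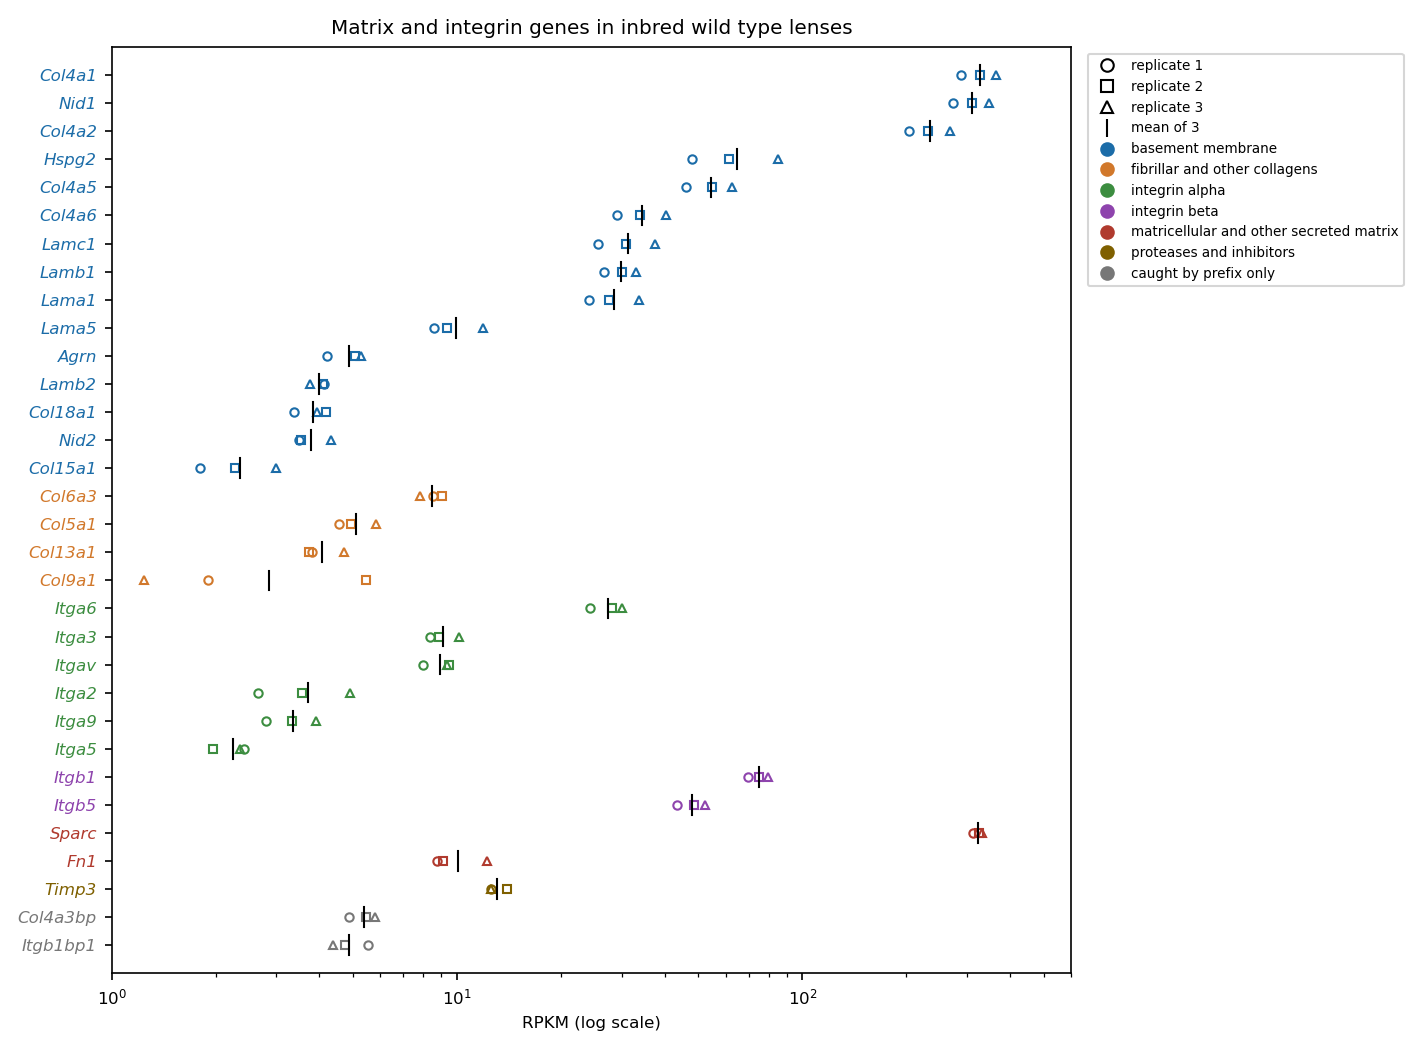
RPKM (log axis) of the 32 members listed in inbred wild type lenses, ordered by role and level. Symbols are the 3 libraries, black ticks their means and colours the role of the gene. Type IV collagen chains, Nid1 and Sparc stand at the right, and Col9a1 is the member with the widest spread.

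Type IV collagen, whose chains wind into trimers and link into the network that gives the capsule its strength, was the most abundant family. Col4a1 had 287, 328 and 364 RPKM in the 3 inbred libraries, and its partner in the most widespread trimer, Col4a2, had 203, 231 and 267 RPKM. The chains of the other trimer listed were lower, with 46.0, 54.9 and 62.7 RPKM for Col4a5 and 29.1, 34.0 and 40.3 RPKM for Col4a6. All 4 chains were lowest in replicate 1 and highest in replicate 3, and the ranges of Col4a1 and Col4a2 did not reach those of Col4a5 and Col4a6. Together they summed to 649 ± 84.3 RPKM (SD, n = 3), 38.2% of the members' sum. Col4a3 and Col4a4, whose chains pair with the Col4a5 chain in the kidney filter, are not in the inbred list, whose lowest mean is 2 RPKM.

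Although each chain varied between libraries, the ratios between chains varied less. Col4a1 over Col4a2 was 1.40 ± 0.0309 (SD, n = 3 libraries) in RPKM, but 0.892 ± 0.079 in the authors' normalized expression values per kilobase, so the order of these chains depends on which deposited value is read. Col4a5 over Col4a6 was 1.59 ± 0.0293 in RPKM and 1.55 ± 0.0501 in normalized values per kilobase, the same order in both. Col4a1 was 6.01 ± 0.222 times Col4a5 in RPKM and 3.42 ± 0.23 times in normalized values per kilobase.

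Laminins, cross-shaped trimers of an alpha, a beta and a gamma chain, start basement membrane assembly. Lamc1, the common gamma chain, had 25.6, 30.8 and 37.5 RPKM, Lamb1 had 26.6, 30.0 and 32.9 RPKM and Lama1 had 24.1, 27.5 and 33.7 RPKM. These chains, which together form laminin-111, overlapped in range and stood within 1.10-fold of each other by their mean RPKM. Lamc1 over Lamb1 was 1.04 ± 0.0887 in RPKM but 1.29 ± 0.0758 in normalized values per kilobase (SD, n = 3 libraries). Lamc1 over Lama1 was 1.10 ± 0.0315 and 1.10 ± 0.0333, with Lamc1 higher in every library. The exon length deposited for Lamb1 is 9917 bases against 5784 in its longest annotated transcript, while those of Lama1 are 9518 and 9526. Lamb1 over Lama1 was 1.06 ± 0.0683 in RPKM and 0.853 ± 0.0437 in normalized values per kilobase, so no order between them is given. The chains of other laminins were lower: Lama5 averaged 9.94 ± 1.75 RPKM and Lamb2, the beta chain of adult kidney and muscle basement membranes, 3.99 ± 0.205 RPKM (SD, n = 3 each). Lama1 was 2.86 ± 0.0672 times Lama5, and Lamb1 was 7.51 ± 1.18 times Lamb2, in RPKM. These 5 of the 11 laminin chains were listed.

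The linkers of the 2 networks were unequal. Nid1, which binds both laminin and type IV collagen, had 272, 310 and 347 RPKM, whereas its paralogue Nid2 averaged 3.78 ± 0.46 RPKM (SD, n = 3). Nid1 was thus 81.9 ± 5.02 times Nid2 in RPKM and 59.1 ± 4.89 times in normalized values per kilobase. Nid1 over Col4a1 was 0.949 ± 0.003 in RPKM but 1.49 ± 0.0756 in normalized values per kilobase. Among the heparan sulphate proteoglycans, Hspg2, which encodes perlecan, had 48.1, 61.4 and 84.8 RPKM. Agrn, which encodes agrin, averaged 4.85 ± 0.562 RPKM, and Col18a1, whose collagen XVIII carries heparan sulphate and releases endostatin, 3.83 ± 0.405 RPKM. Every library had Hspg2 at least 11.4 times as high as Agrn in RPKM. The related Col15a1 was the lowest basement membrane gene, at 2.36 ± 0.6 RPKM.

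Sparc, a calcium-binding matricellular protein that binds collagen IV and whose loss gives mice cataracts, had 312, 325 and 332 RPKM and shared the top of the order with Col4a1. Its spread was the smallest of the members, with a coefficient of variation of 3.12%. Fn1, fibronectin, the matrix of migrating cells and of wound repair, had 8.75, 9.13 and 12.2 RPKM, and Fn1 over Sparc was 0.031 ± 0.0051 (SD, n = 3). Timp3, an inhibitor of metalloproteinases that stays bound to the matrix, had 12.6, 13.98 and 12.5 RPKM. Of its exon bases, 21.3% overlap the gene Syn3 on the other strand in the GENCODE annotation, and the library kit named in the labels does not mark strand, so reads that fall in the overlap cannot be told apart. Mmp2, Mmp14, Timp1 and Tnc, the remaining named genes, were in neither list.

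Collagens outside the basement membrane were sparse. Col6a3, a chain of the beaded collagen VI, had 8.52, 9.05 and 7.83 RPKM. Col5a1, which nucleates collagen fibrils, had 4.55, 4.94 and 5.85 RPKM. Col13a1, a collagen that spans the cell membrane, had 3.79, 3.72 and 4.71 RPKM. Col6a3 was highest in replicate 2 and the other 2 in replicate 3. Col9a1, known from cartilage and the vitreous, had 1.91, 5.45 and 1.24 RPKM, or 163, 455 and 90 reads. Only replicate 2 was high, and its coefficient of variation, 78.9%, was the highest of all 7676 listed genes. Of 11 cartilage markers, 0 were listed in inbred lenses, and whether tissue carried over with the pooled lenses had a part in the Col9a1 values was not tested. In all, 10 of the 44 collagen chain genes of the annotation were listed, and the fibrillar chains of connective tissue, Col1a1, Col1a2 and Col3a1, were not.

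Integrin subunits summed to 178 ± 15.5 RPKM (SD, n = 3), 10.5% of the members' sum, over 8 genes. Itgb1, the beta subunit shared by the laminin, collagen and fibronectin receptors, had 69.7, 74.8 and 79.5 RPKM. Itgb5, which pairs with the alpha v subunit as a vitronectin receptor, had 43.4, 48.5 and 52.3 RPKM. Itgb1 was above Itgb5 in every library, by 1.56 ± 0.0448 times. For Itgb5, 8.70% of its transcript's 31-base words also occur in another annotated gene, and for Itga6 6.92%, so a small part of their reads may be shared.

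Of the alpha subunits, the laminin receptor subunit Itga6 was highest, with 24.2, 28.1 and 30.0 RPKM. It was followed by Itga3, another laminin receptor subunit, with 8.33, 8.88 and 10.1 RPKM, and by Itgav, the subunit of RGD-binding receptors, with 7.97, 9.47 and 9.36 RPKM. Itga3 and Itgav overlapped, and both lay below Itga6 in all 3 libraries. The collagen receptor subunit Itga2 averaged 3.71 ± 1.14 RPKM, Itga9, which binds tenascin and other ligands, 3.35 ± 0.552 RPKM, and the fibronectin receptor subunit Itga5, the lowest member, 2.25 ± 0.25 RPKM. Itgb1 alone stood at 2.73 ± 0.128 times Itga6, and the summed beta subunits at 123 ± 9.35 RPKM exceeded the summed alpha subunits at 54.8 ± 6.15 RPKM. RPKM divides by the deposited exon length, which for Itga6 is 9025 bases against 4310 in its longest annotated transcript. For Itgav these are 10744 and 7054 bases, and for Itgb1 4081 and 3815. The ratio and the sums therefore depend on the length used. Itgb4, the partner of the alpha 6 subunit in hemidesmosomes, was not listed, nor were Itgb3 and Itgb6. Col4a3bp and Itgb1bp1, which are not matrix genes, were low. Col4a3bp had 4.87, 5.46 and 5.80 RPKM, and Itgb1bp1 had 5.52, 4.75 and 4.37 RPKM.

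Ordered by mean RPKM, the 32 members form 31 neighbouring pairs, and the ranges of 25 pairs overlapped. The 6 steps at which every library of the higher gene lay above every library of the lower were Nid1 over Col4a2, Col4a2 over Itgb1, Itgb5 over Col4a6, Itga6 over Timp3, Timp3 over Fn1 and Col6a3 over Col4a3bp. In 5 of the 25 overlapping pairs the higher gene was still above the lower within each of the 3 libraries: Hspg2 over Col4a5, Col4a5 over Itgb5, Col4a6 over Lamc1, Lama5 over Itga3 and Agrn over Col13a1. In the other overlapping pairs at least 1 library had the opposite order.

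The members varied together among the inbred replicates. Replicate 3 held the highest RPKM of 24 of the 32 members (75%), against 52.4% of all listed genes, and replicate 1 held the lowest of 25 (78.1%), against 44.6%. The median coefficient of variation was 12% for members and 7.21% for all listed genes. The pattern ran with exon length. With the listed genes split into 4 length classes of like size, replicate 3 was highest in 25.9% of the shortest class and in 76.2% of the longest, whose median log2 ratio of replicate 3 to replicate 1 was 0.21. Of the members, 22 lay in the longest class, and their median exon length was 6768.5 bases, against 3714 bases for all listed genes. Of those 22, 17 were highest in replicate 3, where the share of the whole class was 76.2%, and 19 were lowest in replicate 1, where it was 71.2%.

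Some members lay high even among genes of like length. The log2 ratio of replicate 3 to replicate 1 was 0.82 for Hspg2, above 99.3% of the longest class, and 0.48 for Lama1, above 92.0%. For Col4a2, Nid1 and Col4a1 it was 0.40, 0.35 and 0.34, above 75.3% to 82.7% of that class. Sparc, a shorter gene, had 0.09. Marker sums of vessel cells were also highest in replicate 3 and lowest in replicate 1. The 7 of 13 endothelial markers listed summed to 24.4, 26.0 and 29.3 RPKM in replicates 1, 2 and 3, with Pecam1 not listed. The 3 of 8 pericyte and smooth muscle markers listed summed to 14.6, 16.8 and 18.3 RPKM. Only Notch3 of these was highest in replicate 3 (5.595, 6.10 and 8.32 RPKM). Acta2 (3.06, 3.685 and 3.61 RPKM) and Rgs5 (5.94, 6.985 and 6.42 RPKM) were highest in replicate 2. Of 12 periocular mesenchyme markers only Pdgfra was listed, at 20.4, 21.6 and 25.4 RPKM. Of 8 macrophage markers 0 were listed. The sum of the 4 erythroid markers listed of 8, all haemoglobin genes, ran the other way, at 707, 679 and 656 RPKM. Among them Hba-a1 alone rose, with 264, 270 and 276 RPKM. The part of length and of these cells in the spread of the members was not tested.

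**Figure D2:**
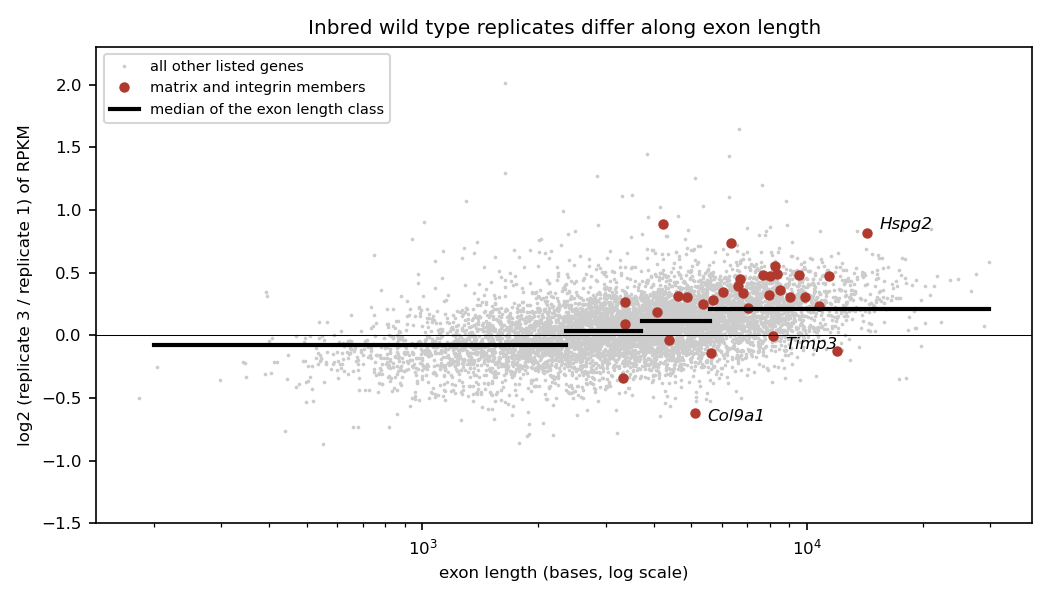
Log2 ratio of RPKM in replicate 3 to replicate 1 of the inbred wild type lenses against exon length (bases, log axis). Grey points are listed genes, red points the members, and black bars the medians of the 4 length classes, which climb from -0.08 to 0.21. Most members sit at the long end and above 0, with Hspg2 at 0.82 and Col9a1 at -0.62.

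The second deposited value changed the order of some members. Per read, the authors' normalized expression value was close to that of the typical gene for most members, but it was 0.491 of it for Col4a1, 0.400 for Itga9 and 0.060 for Timp3. Members below 0.6 were 3 of 32 (9.38%), near the 9.13% of all listed genes, a share close to the background. By normalized value per kilobase Col4a1 took rank 4, behind Sparc, Nid1 and Col4a2, and Timp3 took rank 32, against rank 14 in RPKM. A rank change of 3 or more was seen in 3 members.

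**Figure D3:**
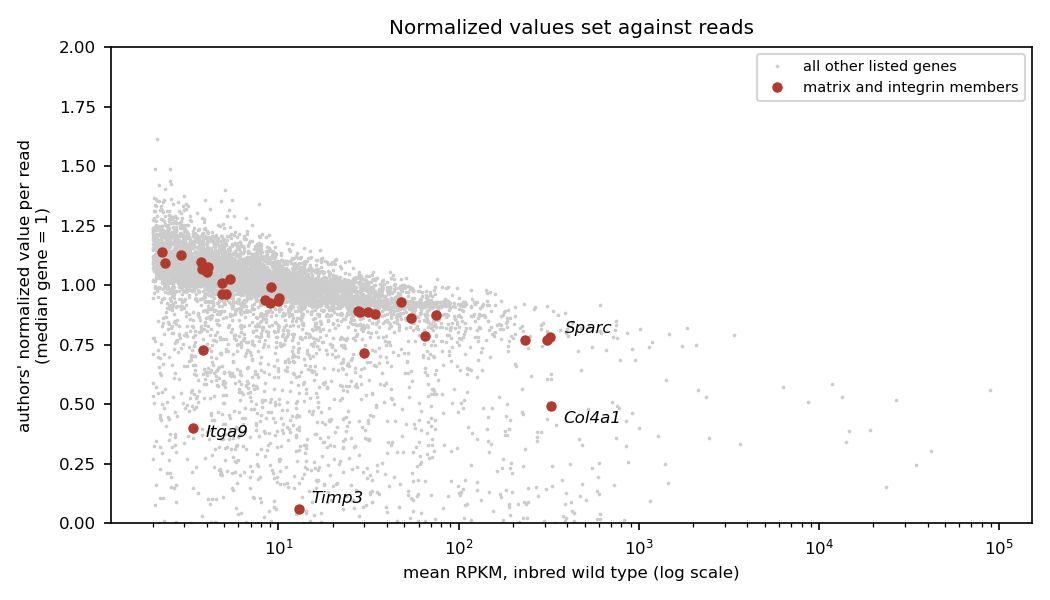
The authors' normalized expression value per read, set to 1 at the median listed gene, against mean RPKM (log axis) in inbred wild type lenses. Grey points are listed genes and red points the 32 members. Most members follow the main band, and Col4a1 (0.491), Itga9 (0.400) and Timp3 (0.060) lie below it.

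Part of each list of genes that make or read matrix was also listed in inbred wild type lenses. Of 36 genes of the integrin adhesion complex, 27 were listed, among them the tetraspanin Cd81 (40.3 ± 1.23 RPKM), the docking protein Bcar1 (30.9 ± 1.05 RPKM), integrin-linked kinase Ilk (22.8 ± 1.03 RPKM) and focal adhesion kinase Ptk2 (12.6 ± 0.853 RPKM; SD, n = 3 each). Of 34 genes of collagen and matrix biosynthesis, 21 were listed, led by the prolyl isomerase Ppib at 137 RPKM and the collagen chaperone Serpinh1 at 120 RPKM. Pxdn, the peroxidase that forms the sulfilimine crosslinks of type IV collagen, had 49.6, 58.9 and 70.1 RPKM. It was highest in replicate 3, as were the type IV chains and 52.4% of all listed genes. Of 53 other matrix and matrix receptor genes, 22 were listed, including Mfap2 (124 ± 5.99 RPKM), a microfibril protein, and Dag1 (23.1 ± 5.35 RPKM), the laminin-binding dystroglycan.

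To determine which matrix genes changed on loss of Sip1, cKO and mixed wild type lenses were compared over the 190 genes listed in both. Ucma, Adamts15, Cyr61 and Itgb8 were all higher in cKO lenses, by log2 fold changes of 4.77, 2.39, 1.52 and 1.34. All 4 passed limma at an adjusted p under 0.05, where 54.2% of the 190 genes were called higher in cKO and 99.5% were called in either direction. The libraries of the groups did not overlap for any of the 4, which held for 100% of the 190 genes. The authors' normalized means differed at least 2.505-fold between the groups in every one of the 190 genes, so the list itself was chosen on these libraries, and the calls of the members are not independent evidence of a change. The sizes and levels are therefore given as a description. The median log2 fold change was 1.95 for the 4 members, 1.37 for all 190 genes and 2.20 for the 63 genes that, like the members, are outside the inbred list, of which 61 were higher in cKO. In each of the 190 genes the higher group averaged at least 2.14 RPKM, and the lowest mean of the inbred list is 2 RPKM. A gene too low in wild type lenses for the inbred list could therefore enter mainly by being high in cKO. The direction of the 4 members is thus not independent evidence either.

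Ucma encodes a small secreted, vitamin K-dependent Gla protein known from the growth plate and other cartilage, where it binds mineral. It had 13.95, 14.43 and 16.42 RPKM in cKO lenses, against 0.088, 0.105 and 0 RPKM in mixed wild type lenses. Its transcript was plain in every cKO library and at or near the limit of detection in every mixed wild type library. In reads, these were 338, 330 and 377 in cKO libraries and 3, 4 and 0 in mixed wild type libraries, where the 0 allows up to 0.077 RPKM (3 reads). The cKO and mixed wild type files give no exon length. These reads rest on a length of 884 bases, which gave whole reads, against 847 in the longest annotated transcript. Per mapped read the cKO libraries held 237 times as many Ucma reads (95% interval 115 to 591, counting error only). On the log2(RPKM + 0.5) scale, which understates the change of such a gene, the fold change was 4.77 (SE 0.11, adjusted p = 5.62e-11 by limma), the rank 2 rise of the 190 genes. No cartilage marker of the 11 listed for comparison was among the 190 genes.

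Adamts15 encodes a secreted metalloproteinase of the ADAMTS family that cuts the proteoglycans versican and aggrecan. It had 1.75, 2.33 and 2.64 RPKM in cKO lenses, against 0.022, 0.00782 and 0.023 RPKM in mixed wild type lenses. The lowest cKO library was far above the highest mixed wild type library. The reads were 284, 358 and 406 in cKO and 5, 2 and 6 in mixed wild type libraries, a ratio of 128 per mapped read (95% interval 74.6 to 241, counting error only). The log2 fold change was 2.39 (SE 0.12, adjusted p = 7.79e-09 by limma), rank 34, and it moved to 4.30 with a pseudocount of 0.1, to 4.72 in the normalized expression values and to 1.51 with median centring.

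Cyr61, now also called Ccn1, encodes a secreted matricellular protein that binds integrins and heparan sulphate. It had 2.27, 3.20 and 2.37 RPKM in cKO lenses, against 0.650, 0.526 and 0.559 RPKM in mixed wild type lenses. The groups were well apart, and cKO replicate 2 was the highest library. The reads were 126, 168 and 125 in cKO and 51, 46 and 50 in mixed wild type libraries, 4.53 times as many per mapped read (95% interval 3.74 to 5.50, counting error only). The log2 fold change was 1.52 (SE 0.12, adjusted p = 3.03e-07 by limma), rank 84.

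Itgb8, the integrin beta subunit that pairs with the alpha v subunit and activates latent TGF-beta, was the only integrin subunit among the 190 genes. It had 2.90, 3.14 and 2.79 RPKM in cKO lenses, against 1.09, 0.681 and 0.845 RPKM in mixed wild type lenses. Expression was thus present in both groups and higher in each cKO library, with means of 2.95 ± 0.179 RPKM in cKO and 0.872 ± 0.205 RPKM in mixed wild type lenses (SD, n = 3 each), 3.38-fold apart. The log2 fold change was 1.34 (SE 0.12, adjusted p = 6.65e-07 by limma), rank 96. Its partner Itgav is not among the 190 genes.

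**Figure D4:**
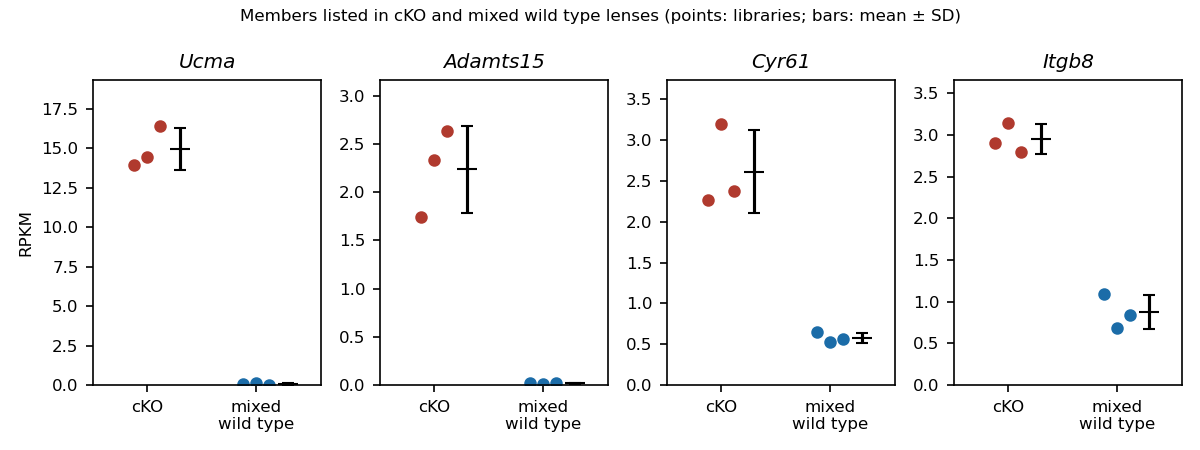
RPKM of the 4 members listed in cKO (red, left in each panel) and mixed wild type lenses (blue, right). Points are libraries and bars the mean ± SD of 3, with a separate scale in each panel. The cKO libraries lie above the mixed wild type libraries in all 4, and mixed wild type values of Ucma and Adamts15 are at or near 0.

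For Cyr61 and Itgb8, the smaller changes, the call was lost under quantile normalization. Over the 190 genes, this step sets the spread of values equal in all libraries. The median log2 fold change of all genes was then 0.19 in place of 1.37. Cyr61 was at 0.086 (SE 0.162, adjusted p = 0.627 by limma) and Itgb8 at 0.077 (SE 0.082, adjusted p = 0.402 by limma). Both values are smaller than their SE, so no direction can be read from them. Median centring gave a median of 0.49, with Cyr61 at 0.64 and Itgb8 at 0.45, both called, as were 186 of all 190 genes. In the authors' normalized expression values they were at 1.64 and 1.46, both called, as were all 190 genes. Quantile normalization and median centring used only the 190 genes, a list chosen on these libraries. They therefore cannot show whether the scale of a whole library was off. Of the markers of other cells, the endothelial Tek was also higher in cKO, with 8.31 ± 0.41 RPKM in cKO and 2.71 ± 0.172 RPKM in mixed wild type lenses (SD, n = 3 each), and was the only one of 13 endothelial markers among the 190 genes. The erythroid Hba-a2 was lower, at 109 ± 29.5 RPKM in cKO and 476 ± 73.3 RPKM in mixed wild type lenses, as was Hba-x, at 1.64 ± 0.88 RPKM in cKO and 6.70 ± 2.19 RPKM in mixed wild type lenses. Whether the content of other cells had a part in the members' values was not tested.

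**Figure D5:**
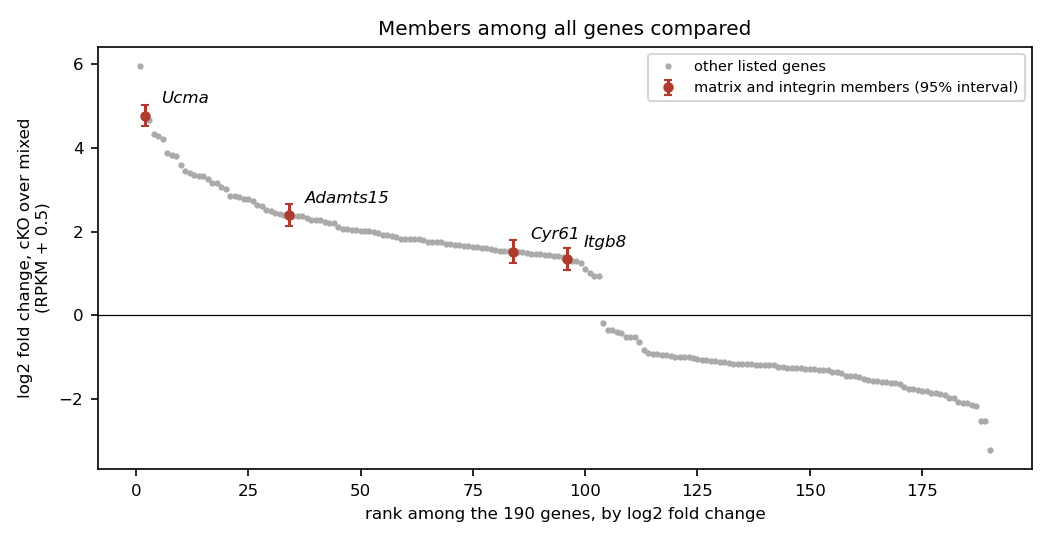
Log2 fold change of RPKM + 0.5, cKO over mixed wild type, for the 190 genes ranked from highest to lowest. Red points are the 4 members with 95% intervals, and grey points the other genes. Ucma ranks 2 at 4.77, and Cyr61 and Itgb8 lie near the low end of the 103 genes called higher in cKO.

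Of the other genes of the pathway, 5 lists with 191 genes in all held 1 gene of the 190. That gene was Fras1, which encodes a basement membrane protein of the embryonic epithelium. It had 2.83, 3.03 and 2.92 RPKM in cKO lenses, against 0.560, 0.436 and 0.551 RPKM in mixed wild type lenses. The groups did not overlap, and the log2 fold change was 1.76 (SE 0.09, adjusted p = 1.15e-08 by limma). It was 0.34 with quantile normalization and 0.87 with median centring, still called in both, as were 171 and 186 of all 190 genes. Fras1 is also outside the inbred list, so its direction is subject to the same selection as that of the members. No gene of the lists for the integrin adhesion complex, collagen biosynthesis, other matrix proteases or TGF-beta signalling was among the 190, which says only that none met the selection of that list.

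Sip1 binds the letters CACCT, so the promoters of called members were read from RefSeq (GRCm38.p6), 250 bases before the start of the gene, 5′ to 3′ on the strand of the gene. They are shown for Ucma, the largest rise of the members, and for Cyr61, and no window is printed for Adamts15 and Itgb8. Capitals mark matches to CACCT, here on the opposite strand and so read as AGGTG. The Ucma window is chr2:4975872-4976121, plus strand, and the Cyr61 window chr3:145649986-145650235, minus strand.
Ucma: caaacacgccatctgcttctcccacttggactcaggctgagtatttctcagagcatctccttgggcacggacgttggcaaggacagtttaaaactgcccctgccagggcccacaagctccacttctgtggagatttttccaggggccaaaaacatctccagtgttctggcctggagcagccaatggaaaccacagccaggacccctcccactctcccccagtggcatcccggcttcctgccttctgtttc
Cyr61: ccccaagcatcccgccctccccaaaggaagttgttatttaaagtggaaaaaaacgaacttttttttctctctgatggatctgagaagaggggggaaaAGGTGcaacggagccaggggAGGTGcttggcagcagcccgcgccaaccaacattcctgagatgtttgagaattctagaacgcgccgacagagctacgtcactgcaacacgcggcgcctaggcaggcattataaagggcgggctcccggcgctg
The Ucma window held no match to CACCT on either strand. The Cyr61 window held 2, beginning 153 and 133 bases before the start, and no match to the longer form CACCTG, which contains CACCT. Of 32851 such windows of RefSeq genes, 46.0% held CACCT and 17.2% held CACCTG on either strand. The GC content was 56.4% for Ucma and 54.8% for Cyr61, against a median of 52.4%. A match is a description of letters, and binding was not measured.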

How the data were processed

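The authors deposited RPKM and a normalized expression value per gene, per the file headers. The second is a score that the authors made from the reads by a normalization the file headers do not describe. Inbred files also give exon lengths. For some genes these exceed the longest annotated transcript, so RPKM ratios between genes depend on the length used. The submitters' processing notes name CASAVA 1.8.2. Libraries were made with a TruSeq RNA kit, per the labels' protocols. The sources used here do not give an aligner, build or annotation. RPKM times exon length came in whole steps in each library, which gave the depth. This held for 100% of the values used, within 0.1 reads plus the rounding of RPKM, which grows with exon length. Inbred libraries used the 400 lowest values, the others every value above 0 of the 127 genes with an inbred exon length. For Ucma, Adamts15 and Cyr61, lengths near the longest annotated transcript were searched for whole reads, which gave 884, 5928 and 2028 bases. Where several sets of reads fitted, the annotated length was taken if it was among them. No reads were recovered for Itgb8. Of the 7700 inbred rows, 24 with 12 repeated symbols were left out. Groups follow the labels.

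The cKO and mixed wild type libraries were compared with limma 3.58.1 (R 4.3.3) with a mean-variance trend on log2(RPKM + 0.5), over genes averaging 1 RPKM or more, without covariates, and adjusted by Benjamini-Hochberg over all 190 genes at 0.05. The test was also tried on simulated data, whose low baseline levels were raised. That trial does not cover genes as low as Ucma and Adamts15 in mixed wild type lenses. RPKM is not a count, so no count test was used. With 3 libraries a group, exact permutation p-values stop at 0.1. Read ratios have exact binomial intervals at 95%, and intervals and floors cover counting error only, since reads are not independent molecules.

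The members and the 13 gene lists (5 pathway, 8 marker) were chosen with earlier results of these data known. Every member was accounted for. Values in every library were given for members of the cKO and mixed files and for the 3 highest in each role group. Alternatives were other pseudocounts, filters, scalings, normalized values, no trend, the replicate number as a block and each library left out. GENCODE M21 (GRCm38) served for names, sequence sharing and overlap. Other steps ran in Python 3.11.15 (scipy 1.17.1, pandas 2.3.3, numpy 2.4.6).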

Additional observations from a re-analysis of the deposited data

How the results depend on the processing

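Under 16 alternatives the 4 members gave 55 values. Of these, 53 kept the direction and the call, 2 kept the sign but lost the call, and 0 changed sign. Those 2, Cyr61 and Itgb8 under quantile normalization, were smaller than their SE. The 190 genes were chosen on these libraries, and 186 of them were called with median centring. The members' counts are therefore not independent evidence. Log2 fold changes ranged from 3.89 to 6.58 for Ucma, 1.46 to 4.72 for Adamts15, 0.09 to 1.99 for Cyr61 and 0.08 to 1.67 for Itgb8. Quantile normalization left 2 of 4 members called, against 171 of all 190 genes. A minimum mean of 2 RPKM left 1 member to test, Ucma, and it was called, as were 167 of the 168 genes tested. Leaving out each library in turn left 3 to 4 called, the lower count without cKO replicate 2 or 3, when the mean of Adamts15 fell under the minimum of 1 RPKM. In the same fits 185 to 190 genes were called of the 186 to 190 tested, so the members' count there is that of nearly every gene.

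Correlations between same-numbered cKO and mixed wild type libraries, around their group means, were -0.10, -0.11 and -0.15. Those between differently numbered libraries ran from -0.02 to 0.15. These weak values, over a list chosen on these libraries, cannot settle whether the replicate numbers pair the samples. With the replicate number as a block 4 members were called, as were 189 of all 190 genes. The members' share of the inbred values was 0.312% to 0.358% when each library was left out. It was 1.23% in reads, 1.40% in normalized expression values, 0.864% without crystallins and 0.271% without Col4a1. In normalized values per kilobase Col4a1 took rank 4, Col4a1 over Col4a2 was 0.892 and Lamb1 over Lama1 was 0.853. The cause was not tested. No member was listed in both kinds of file, so the planned comparisons with inbred wild type lenses and the joint fit of 9 libraries gave no member value. Genes outside the deposited lists were not analysed here, which limits what can be said of low members.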

Other observations

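Among the matrix proteases and inhibitors outside the members, 12 of 44 were listed in inbred wild type lenses. Adam10, a sheddase of membrane proteins, had 55.9 ± 4.11 RPKM, and Adamts18, a secreted metalloproteinase, 35.6 ± 4.68 RPKM (SD, n = 3 each). Both were above every protease or inhibitor member listed in these libraries, of which Timp3 at 13.0 ± 0.825 RPKM was the only one. Of 24 genes of TGF-beta signalling, 14 were listed, led by the ligand Tgfb2 at 20.99 ± 1.68 RPKM, the Smad corepressor Ski at 19.4 ± 1.58 RPKM and the shared signal carrier Smad4 at 12.4 ± 1.24 RPKM.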
